A study of Mus musculus with 24 samples.

Results

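The homeostatic microglia genes described here were P2ry12, P2ry13, Tmem119, Cx3cr1, Csf1r, Gpr34, Selplg, Siglech and Sall1. They were taken by mouse gene symbol, each matched to its Ensembl entry, and make up 9 of the 56750 entries of the count table. All 9 were read in every library and all 9 passed the filter on low counts. Bulk RNA of the medial prefrontal cortex was sequenced. All mice carried the genotype label 5xFAD, a line carrying human APP with familial Alzheimer's disease mutations, driven by the neuronal Thy1 promoter.

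The 24 libraries fell by title into 6 groups of 4. They were SI_EE, GH_EE, SI_WT, GH_WT, SI_Con and GH_Con. SI stands for social isolation and EE for an enriched environment. Con libraries carry the treatment label control. The sources used here do not spell out GH, nor WT in a series where every library, the WT arm included, carries the genotype label 5xFAD. The series title also names resocialization, which the labels tie to no arm. Ages and sex are not stated. The labels also leave unsaid whether the libraries of a group were made from separate animals, so p-values rest on the spread among 4 libraries, part of which may be technical.

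Microglia are the resident macrophages of the brain parenchyma. In the undisturbed adult brain they survey the tissue with mobile processes and carry a set of surface receptors that other macrophages hold at lower levels or lack. Around amyloid plaques many of them lose part of that set and take on a plaque-associated programme that involves the receptor Trem2 and the lipid carrier Apoe.

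The 9 genes cover several roles. P2ry12 is the ADP receptor that steers microglial processes toward injured cells, and P2ry13 is a related ADP receptor. Gpr34 is a receptor for lysophosphatidylserine. Cx3cr1 is the receptor of the neuronal chemokine Cx3cl1. Csf1r is the tyrosine kinase receptor for Csf1 and Il34 on which microglial survival depends. Tmem119 is a membrane protein widely used to mark microglia, Selplg encodes the P-selectin ligand PSGL-1, Siglech encodes a sialic acid binding lectin, and Sall1 is the transcription factor that holds microglia in their resident state.

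On the mouse GRCm38 assembly (GENCODE release M21), P2ry12 (chr3:59216272-59262871) and P2ry13 (chr3:59207892-59210882) lie 5389 bases apart on the minus strand, both inside Med12l on the opposite strand. The exons of P2ry12 overlap those of Med12l and the exons of P2ry13 do not. Tmem119 (chr5:113793729-113800516) and Selplg (chr5:113818536-113832644) are also neighbours, 18019 bases apart on the minus strand. Gpr34 (chrX:13632089-13640858) lies inside Cask on the opposite strand with no exon in common. Cx3cr1 (chr9:119901616-120069879) shares exonic sequence with the antisense gene Gm33858, and Csf1r (chr18:61100598-61132149) with Hmgxb3 on the opposite strand. Whether counting used the strand is not given in the sources used here, so reads over such shared exons could not be assigned to a strand. Siglech (chr7:55768178-55778925) and Sall1 (chr8:89027235-89044162) overlapped no other annotated gene.

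The promoters of the P2ry12 and P2ry13 pair are shown because the pair are neighbours with related products. Their levels tracked each other across libraries (Pearson r = 0.80, n = 24), which was not particular to neighbours. P2ry13 had r = 0.88 with Csf1r and 0.85 with Gpr34, and P2ry12 had 0.82 with Gpr34, genes on other chromosomes. The windows are RefSeq sequence on GRCm38.p6, minus strand, from 250 bases before the start site to 50 after it, at chr3:59262936-59263235 for P2ry12 and chr3:59210833-59211132 for P2ry13. Capitals mark a match to GGAAGT or GAGGAA, purine-rich words of the kind that ETS factors such as PU.1 (Spi1) bind.

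P2ry12: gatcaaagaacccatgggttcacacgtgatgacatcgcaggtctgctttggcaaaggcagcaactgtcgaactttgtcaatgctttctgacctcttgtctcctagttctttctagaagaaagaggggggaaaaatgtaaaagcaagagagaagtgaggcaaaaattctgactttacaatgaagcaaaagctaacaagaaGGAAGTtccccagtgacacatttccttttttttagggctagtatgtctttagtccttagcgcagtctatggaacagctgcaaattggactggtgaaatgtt

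P2ry13: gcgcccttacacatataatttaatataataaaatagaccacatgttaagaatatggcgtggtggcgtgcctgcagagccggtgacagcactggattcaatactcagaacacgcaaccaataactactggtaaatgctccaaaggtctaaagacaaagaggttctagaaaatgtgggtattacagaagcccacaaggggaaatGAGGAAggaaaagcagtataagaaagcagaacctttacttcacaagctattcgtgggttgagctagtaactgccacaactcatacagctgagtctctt

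The P2ry12 window held GGAAGT starting at position -51 from the start site, and the P2ry13 window held GAGGAA starting at -48. Both strands were searched, and the words can share 4 bases. A promoter window was at hand for 5 of the 9 genes. Siglech held both words on the minus strand, Sall1 held GGAAGT before 1 of its start sites, and Cx3cr1 held neither. Of 32851 promoter windows of the same length, 28.3% held GAGGAA, 23.8% held GGAAGT and 43.4% held either, so such a match is common and is given as a description only.

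The libraries held 33683587 to 51274917 counts. Markers of neurons summed to 5840 to 11200 CPM (read counts relative to the library total, scaled by TMM) in every library. The library SI_EE 1 stood apart, with 8 cerebellar markers summing to 4490 CPM against at most 256 CPM in the other libraries, and with the lowest neuronal sum. In SI_WT 4, SI_Con 2, SI_Con 3 and GH_Con 2, longer genes had lower values than in the other libraries. The human APP entry was read in all 24 libraries, WT arm included, from 337 CPM (SI_EE 1) to 4680 CPM (SI_WT 1).

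Divided by exon length, the receptor Csf1r was the most abundant of the 9, at 13.4 ± 3.05 RPKM (CPM divided by the kilobases of exon, SD over 24 libraries). P2ry12 followed at 10.1 ± 3.02 RPKM and Tmem119 at 7.64 ± 1.44 RPKM. Gpr34 (5.39 ± 2.09 RPKM) and Selplg (5.38 ± 1.55 RPKM) could not be ordered. Sall1 stood at 4.29 ± 0.904 RPKM, P2ry13 at 3.74 ± 1.02, Cx3cr1 at 2.24 ± 0.685 and Siglech lowest at 1.61 ± 0.52 RPKM. Neighbours in this order overlapped in their ranges over libraries. Between libraries, Gpr34 varied most (SD 0.69 on the log2 CPM scale, 2.82 to 19.6 CPM) and Tmem119 least (SD 0.29, 10.1 to 23.6 CPM).

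**Figure D1:**
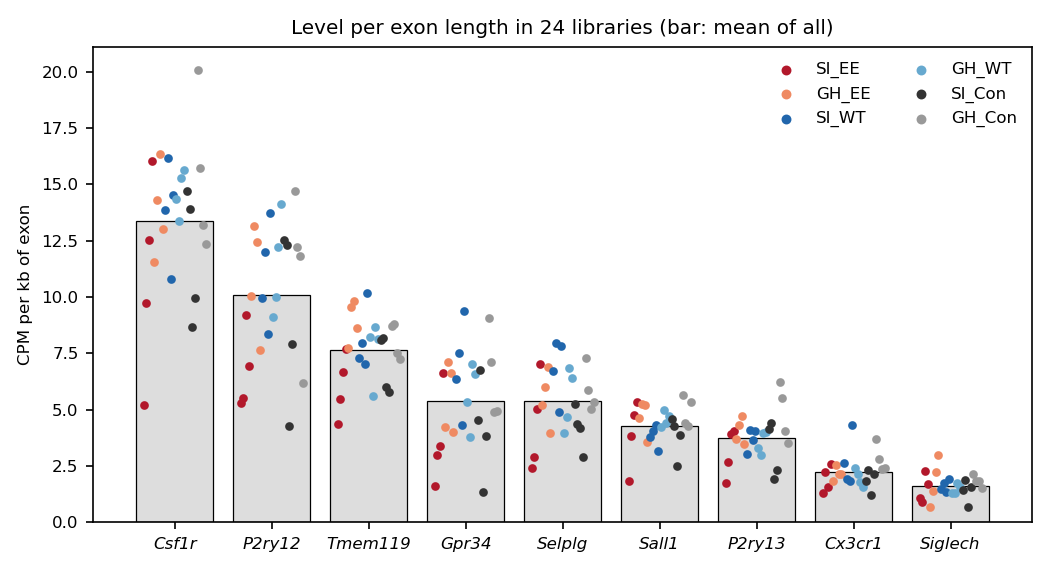
Level of each gene per kilobase of exon (CPM per kb, linear axis from 0) in the 24 libraries, each point 1 library coloured by group in the order of the legend, bars the mean of all. Csf1r is highest and Siglech lowest, and the points of neighbouring genes overlap.

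In isolated mice without treatment every one of the 9 genes had a lower fitted level than in GH mice, but no difference passed the test. The median log2 fold change of SI_Con over GH_Con was -0.41, where the median of all genes was 0, and 49.9% of the 20354 genes tested lay below 0. The edgeR quasi-likelihood test called 0 of the 9 after Benjamini-Hochberg adjustment, and DESeq2 and limma-voom also called 0. Across all genes it called 0% in either direction. The 9 genes share libraries and cells, so their common direction is not 9 separate observations. In bulk tissue, fewer microglia and less RNA per microglial cell cannot be told apart.

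Cx3cr1, the fractalkine receptor, stood at 8.28, 10.4, 5.53 and 9.63 CPM in SI_Con, against 16.6, 12.7, 10.6 and 10.9 CPM in GH_Con. All 4 SI_Con libraries lay below all 4 GH_Con libraries, a pattern that 2.61% of genes showed in that direction, and no other of the 9 did. Its log2 fold change was -0.59 (SE 0.26, unadjusted p = 0.0356, edgeR adjusted p = 0.721).

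The ADP receptor P2ry13 stood at 10.5, 11.2, 4.82 and 5.86 CPM in SI_Con, against 15.7, 14, 10.2 and 8.86 CPM in GH_Con. Replicates 1 and 2 of SI_Con reached into the GH_Con range while 3 and 4 lay below it. Its log2 fold change was -0.59 (SE 0.26, unadjusted p = 0.0367, edgeR adjusted p = 0.724). These 2 of 9 genes were at an unadjusted p under 0.05, beside 3.57% of all genes in that direction and 2.97% in the other. Its neighbour P2ry12 stood at 31.9, 31.3, 10.9 and 20.2 CPM in SI_Con, against 37.4, 31.1, 30.1 and 15.7 CPM in GH_Con, and the 2 groups overlapped widely. Med12l, the gene around both, had a log2 fold change of 0.00 (SE 0.13).

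The remaining genes had values of the same sign and wide error. Gpr34 had the largest difference, -0.66 on the log2 scale (SE 0.40), at 9.46, 14.1, 2.82 and 8.05 CPM in SI_Con against 19.0, 14.9, 10.2 and 10.3 CPM in GH_Con. Selplg differed by -0.49, Siglech by -0.41, Csf1r by -0.38, Sall1 by -0.37 and Tmem119 by -0.21, with unadjusted p-values between 0.0877 and 0.25. SI_Con 3 was the lowest SI_Con library for 7 of the 9 genes, and without it the median over the 9 was -0.25. Without GH_Con 1, GH_Con 2 or SI_Con 3, no gene kept an unadjusted p under 0.05.

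Within the enriched environment the direction was the same. All 9 genes were lower in SI_EE than in GH_EE, with a median log2 fold change of -0.35 beside 0.02 for all genes, of which 47.1% lay below 0. By edgeR 0 of the 9 passed, as by DESeq2 and limma-voom, and edgeR called 0.00491% of all genes lower and 0% higher.

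Tmem119, the microglial membrane marker, had the smallest p of any gene of the 9 in any group comparison. It stood at 10.1, 12.7, 15.4 and 17.8 CPM in SI_EE, against 17.9, 22.1, 22.7 and 20 CPM in GH_EE. The groups did not overlap, by a margin of 17.8 CPM (SI_EE 4) to 17.9 CPM (GH_EE 1), as for 2.01% of genes in that direction. The log2 fold change was -0.56 (SE 0.17, unadjusted p = 0.00382, edgeR adjusted p = 0.412). Without SI_EE 1, the library with cerebellar transcripts, it was -0.44 (edgeR adjusted p = 1).

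P2ry12 stood at 13.5, 14.1, 23.4 and 17.7 CPM in SI_EE, against 25.6, 33.5, 31.7 and 19.5 CPM in GH_EE. Only SI_EE 3 reached into the GH_EE range. Its log2 fold change was -0.69 (SE 0.29, unadjusted p = 0.0289, edgeR adjusted p = 0.539), and -0.59 without SI_EE 1. These 2 of 9 genes were at an unadjusted p under 0.05, beside 2.34% of all genes in that direction and 6.36% in the other. The other 7 ran from -0.59 (Gpr34) to -0.17 (Cx3cr1), and their groups overlapped.

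Much of this difference came with SI_EE 1, which was the lowest of all 24 libraries for P2ry13, Tmem119, Csf1r, Selplg and Sall1. Csf1r, for instance, stood at 30, 56.3, 72.4 and 92.6 CPM in SI_EE, against 66.6, 82.7, 94.5 and 75.3 CPM in GH_EE. Without SI_EE 1 the median over the 9 genes was -0.17, and Sall1 (-0.01) and Cx3cr1 (-0.03) were level with GH_EE. Without SI_EE 4, the highest SI_EE library for 7 of the 9 genes, the median was -0.59.

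**Figure D2:**
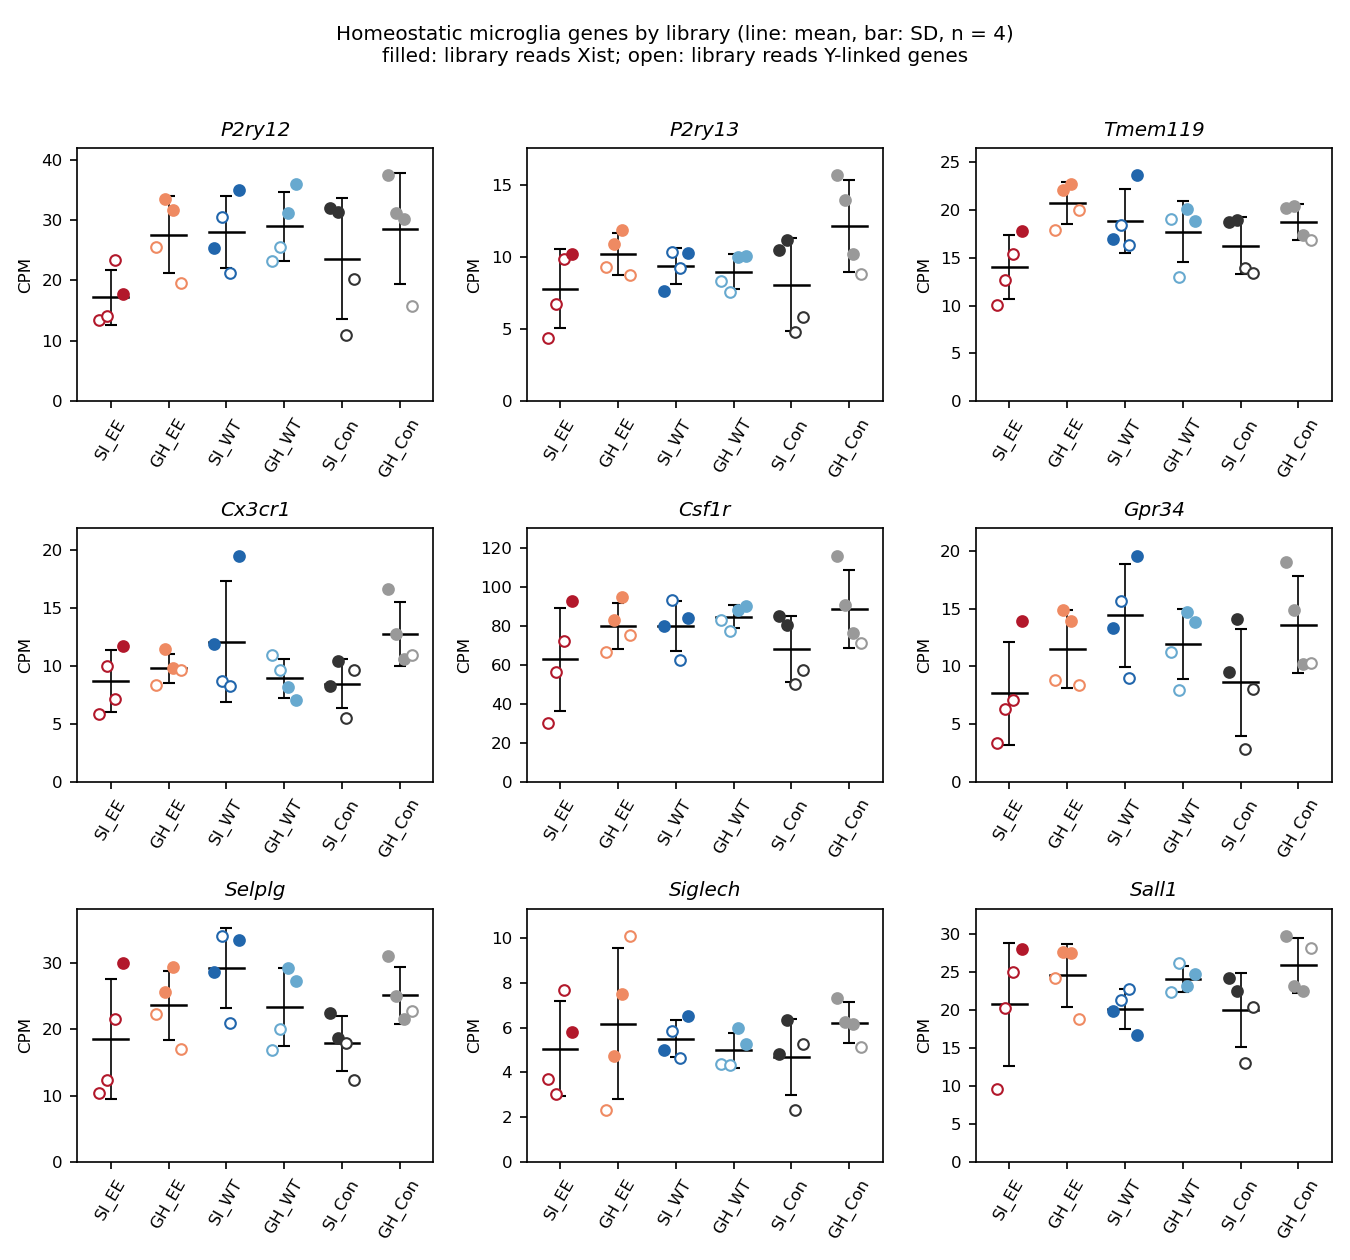
CPM of each gene (linear axes from 0) in every library, with the group mean (line) and SD (bar, n = 4), isolated groups left of their GH counterparts and EE and WT arms left of Con. Filled points read Xist and open points read Y-linked genes, and within most groups the filled points are the higher ones.

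In the WT arm the 9 genes took no common direction between housings. The median log2 fold change of SI_WT over GH_WT was 0.08, with 6 genes above 0 and 3 below (50.5% of all genes lay below), and 0 of 9 had an unadjusted p under 0.05 (1.76% of genes were higher and 3.61% lower at that level). Cx3cr1 was highest at 0.43 (SE 0.26), at 11.9, 8.65, 8.22 and 19.5 CPM in SI_WT against 10.9, 9.62, 8.14 and 7.06 CPM in GH_WT. SI_WT 4 was the highest of all 24 libraries for this gene.

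Against isolated controls, SI_WT had log2 fold changes above 0 for all 9 genes (median 0.23, with 51% of all genes below 0). Sall1 was level at 0.01 (SE 0.23). SI_EE was above SI_Con for 4 of 9 (median -0.05, with 49.3% of all genes below 0). Selplg, the P-selectin ligand, had the smallest p, at 28.7, 34.1, 21 and 33.4 CPM in SI_WT against 22.5, 18.7, 17.9 and 12.4 CPM in SI_Con. SI_WT 3 lay inside the SI_Con range. Its log2 fold change was 0.71 (SE 0.27, unadjusted p = 0.0166, edgeR adjusted p = 1), 1 of 9 genes beside 1.40% of all genes in that direction and 2.44% in the other. Without SI_Con 3 the median of SI_WT over SI_Con was 0.11 and Sall1 was at -0.15. In the same comparison 8 of 8 choroid plexus markers were lower, 6 of them at an unadjusted p under 0.05 (median -3.71, sums of 194 to 220 CPM in SI_WT and 210 to 1660 CPM in SI_Con), and border macrophage markers had a median of -0.63 (sums of 14 to 19.2 CPM in SI_WT and 15.8 to 30.7 CPM in SI_Con). Their part in the values of the 9 genes was not tested. For SI_EE against SI_Con 0 of 9 reached that level, where 7.03% of all genes were higher and 5.56% lower, and the median was 0.15 without SI_EE 1. Both comparisons share the SI_Con libraries with the isolation comparison above, so they are not separate evidence on those libraries.

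In GH mice both arms were below GH_Con for 8 of 9 genes, by small medians. The median log2 fold change was -0.09 for GH_EE and -0.10 for GH_WT over GH_Con, where 53.6% and 51.4% of all genes lay below 0. In either, 0 of 9 genes had an unadjusted p under 0.05 (2.62% of genes were higher and 3.70% lower for GH_EE, 1.78% higher and 1.64% lower for GH_WT). Cx3cr1 had the largest differences, -0.38 (SE 0.26) for GH_EE and -0.51 (SE 0.26) for GH_WT, and P2ry13 followed at -0.25 and -0.44. These comparisons share the GH_Con libraries with that of SI_Con against GH_Con. The intervals did not exclude sizeable differences. For P2ry12 the 95% interval ran from -0.66 to 0.55 for GH_EE and from -0.58 to 0.62 for GH_WT on the log2 scale.

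**Figure D3:**
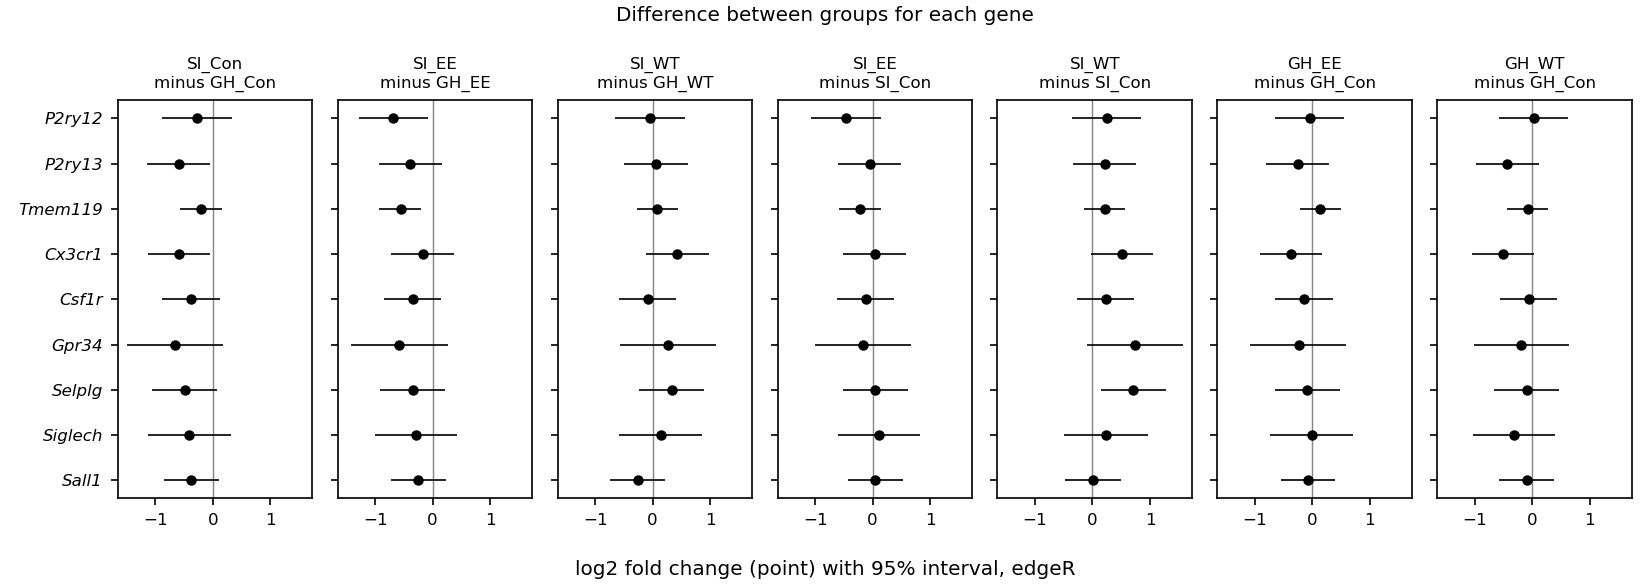
Log2 fold change (x axis) of each gene with its 95% interval from edgeR in the 7 group comparisons, 4 libraries in each group. In SI_Con minus GH_Con and SI_EE minus GH_EE all points lie left of 0. In SI_WT minus SI_Con they lie right of it, Sall1 only by 0.01.

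Averaged over the 3 arms, SI was below GH for all 9 genes, with a median log2 fold change of -0.27 and 49.2% of all genes below 0. Tmem119 differed by -0.23 (SE 0.10, unadjusted p = 0.0328) and Sall1 by -0.29 (SE 0.13, unadjusted p = 0.039), with edgeR adjusted p-values of 0.565 and 0.57. These 2 of 9 stood beside 3.75% of all genes in that direction and 4.86% in the other.

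The arms were also compared directly in their housing difference. The WT arm differed from the untreated mice by a median of 0.56 on the log2 scale (0.33 without SI_Con 3), above 0 for all 9 genes, with Cx3cr1 at 1.02 (SE 0.37, unadjusted p = 0.0114) and Selplg at 0.82 (SE 0.39, unadjusted p = 0.0466). In edgeR both had an adjusted p of 1, and these 2 of 9 stood beside 1.86% of all genes in that direction. For EE the median was 0.13 and 0 of 9 genes had an unadjusted p under 0.05, where 5.16% of all genes were higher and 2.58% lower. The housing difference was not shown to differ between arms for any of the 9.

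SI_EE and SI_Con held the low end of the group order for most of the genes, and the isolated WT arm did not. Siglech and Sall1 differed. For Siglech, GH_WT lay between SI_Con and SI_EE. For Sall1, SI_WT (20.2 CPM) lay between SI_Con (20 CPM) and SI_EE (20.7 CPM). SI_EE had the lowest mean CPM for P2ry12, P2ry13, Tmem119, Csf1r and Gpr34, and SI_Con for Cx3cr1, Selplg, Siglech and Sall1. Part of this order rested on SI_EE 1. Without it, the log2 fold change of SI_EE over SI_Con was 0.15 for P2ry13, 0.12 for Csf1r and 0.09 for Gpr34. It stayed below 0 for P2ry12 (-0.35) and Tmem119 (-0.08). GH_Con was highest for P2ry13, Cx3cr1, Csf1r, Siglech and Sall1, and SI_WT for Gpr34 and Selplg. The widest gap for P2ry12 was between SI_EE at 17.1 ± 4.54 CPM and GH_WT at 29.0 ± 5.76 CPM (SD, n = 4 each), while the means of the groups in between lay within 1 SD of each other. Sall1 averaged 20 ± 4.90 CPM in SI_Con and 25.9 ± 3.62 CPM in GH_Con (SD, n = 4 each), and its 6 group ranges all overlapped.

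Another difference between libraries, which the labels do not give, was seen in sex-linked transcripts. Xist, the RNA that coats the inactive X chromosome in female cells, was read in 12 libraries, and the other 12 read Y-linked genes in its place. Xist was read in 1 of 4 SI_EE, 3 of 4 GH_Con and 2 of 4 libraries of each other group. All 9 genes were higher in the Xist libraries when this split was added to the edgeR fit beside the groups, with log2 differences from 0.16 (Sall1) to 0.77 (Gpr34). After adjustment over all genes 0 of 9 passed, while 7 of 9 had an unadjusted p under 0.05 beside 3.62% of all genes in that direction and 2.61% in the other. At the same level, 21 of 30 other resident microglial genes (median 0.46) and 14 of 20 plaque-associated genes (median 0.55) were higher in the Xist libraries, while 8 of 8 choroid plexus markers were lower (median -1.29), 3 of them at that level. Human APP was also higher in the Xist libraries of GH_Con (3740, 3550 and 3020 CPM against 1500 CPM), SI_Con, GH_EE and SI_EE, without overlap. In GH_WT and SI_WT its values overlapped. This split of APP was looked at after seeing the data, and its part in the values of the 9 genes was not tested.

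Gpr34, which lies on the X chromosome, had the largest of these differences. In the 12 Xist libraries its lowest, median and highest values were 9.46, 14 and 19.6 CPM, and in the other 12 they were 2.82, 8.2 and 15.7 CPM. The ranges overlapped, and the edgeR fit gave 0.77 (SE 0.18, unadjusted p = 0.000279, adjusted p = 0.109). P2ry12, on chromosome 3, averaged 31.0 ± 5.23 CPM in Xist libraries and 20.3 ± 5.82 CPM in the others (SD, n = 12 each), with a log2 difference of 0.56 (SE 0.14, edgeR adjusted p = 0.164). Tmem119 averaged 19.8 ± 2.12 CPM in Xist libraries and 15.6 ± 3.0 CPM in the others, with a log2 difference of 0.31 (SE 0.08, edgeR adjusted p = 0.198). Siglech and Sall1 had the smallest differences, at 0.27 and 0.16.

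Inside the groups the direction was mostly the same, least so for Sall1 (3 of 6 groups). In 48 of the 54 combinations of gene and group the Xist libraries had the higher mean, and in 34 of the 54 every Xist library was above every other library of its group. Over all genes tested, the same held for 50.4% and 18.5% of such combinations. Csf1r, for instance, stood at 84.8 and 80.2 CPM in the SI_Con libraries with Xist, against 50.1 and 57.5 CPM in the SI_Con libraries without it. Without SI_EE 1 the differences ran from 0.11 to 0.72 and 6 of 9 had an unadjusted p under 0.05.

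The isolated groups held fewer Xist libraries than their GH counterparts in the untreated and EE arms. With the Xist term in the fit, all 9 genes remained lower in SI_Con than in GH_Con, from -0.14 (Tmem119) to -0.55 (Gpr34) on the log2 scale, and again 0 of 9 passed. In SI_EE against GH_EE the values with that term ran from -0.51 (P2ry12) to -0.11 (Cx3cr1). Tmem119 was at -0.49 there (edgeR adjusted p = 0.556), against -0.56 without the term. Averaged over the 3 arms the values with that term ran from -0.27 (Sall1) to -0.09 (Cx3cr1).

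**Figure D4:**
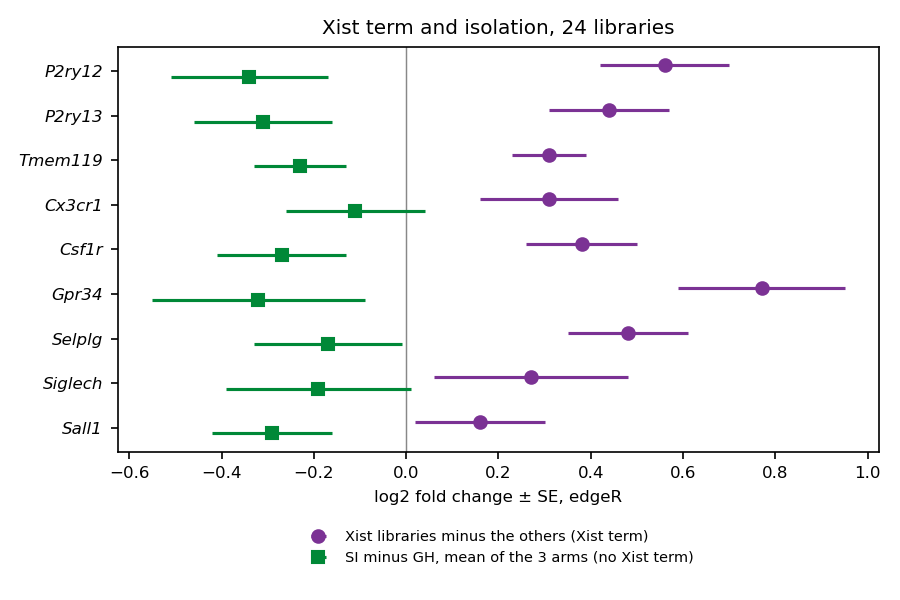
Log2 difference (x axis, ± SE from edgeR) of each gene between Xist libraries and the others (circles) and between SI and GH averaged over the 3 arms (squares). All circles lie right of 0, from 0.16 to 0.77, and all squares left of it, from -0.34 to -0.11.

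Other microglial genes followed the 9 across libraries. Of 30 further genes of resident microglia, 0 passed in SI_Con against GH_Con, 28 had a negative log2 fold change, 3 were lower at an unadjusted p under 0.05, and the median was -0.37. Lpcat2, an enzyme of lipid mediator synthesis, differed by -0.49 (SE 0.25). Of 20 plaque-associated genes, 0 passed, 17 were negative, 7 were lower at an unadjusted p under 0.05, and the median was -0.64. Among those, Trem2, the lipid-sensing receptor of plaque microglia, stood at 8.09 ± 3.41 CPM in SI_Con and 17.4 ± 8.0 CPM in GH_Con (SD, n = 4 each; log2 fold change -1.11, SE 0.45, edgeR adjusted p = 0.654). In SI_EE against GH_EE the 2 lists had medians of -0.22 and -0.05.

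The mean log2 CPM of the 9 genes correlated across the 24 libraries with that of the other resident genes (r = 0.94, rho = 0.95) and of the plaque-associated genes (r = 0.76, rho = 0.85). Without SI_Con 3 and SI_EE 1, the 2 libraries farthest from the median, r was 0.91 and 0.85. Oligodendrocyte markers also followed the 9 (r = 0.64, rho = 0.55, and r = 0.57 without SI_EE 1). So did the ligands and partners described below (r = 0.76, rho = 0.71). Myeloid transcription factors were at r = 0.55 and neuronal markers at 0.49 (rho = 0.04). The cerebellar, border macrophage, leukocyte, choroid plexus and endothelial lists had r from -0.48 to -0.07. Several of these values rested on SI_Con 3 and SI_EE 1. Without both, r was 0.20 for myeloid transcription factors, -0.28 for neuronal, 0.17 for cerebellar and 0.55 for endothelial markers. It was then 0.44 for oligodendrocyte, -0.04 for border macrophage, -0.23 for leukocyte and -0.29 for choroid plexus markers. These correlations are descriptions of libraries that share tissue, depth and scaling. The homeostatic and plaque-associated lists were not seen to move in opposite directions between libraries.

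**Figure D5:**
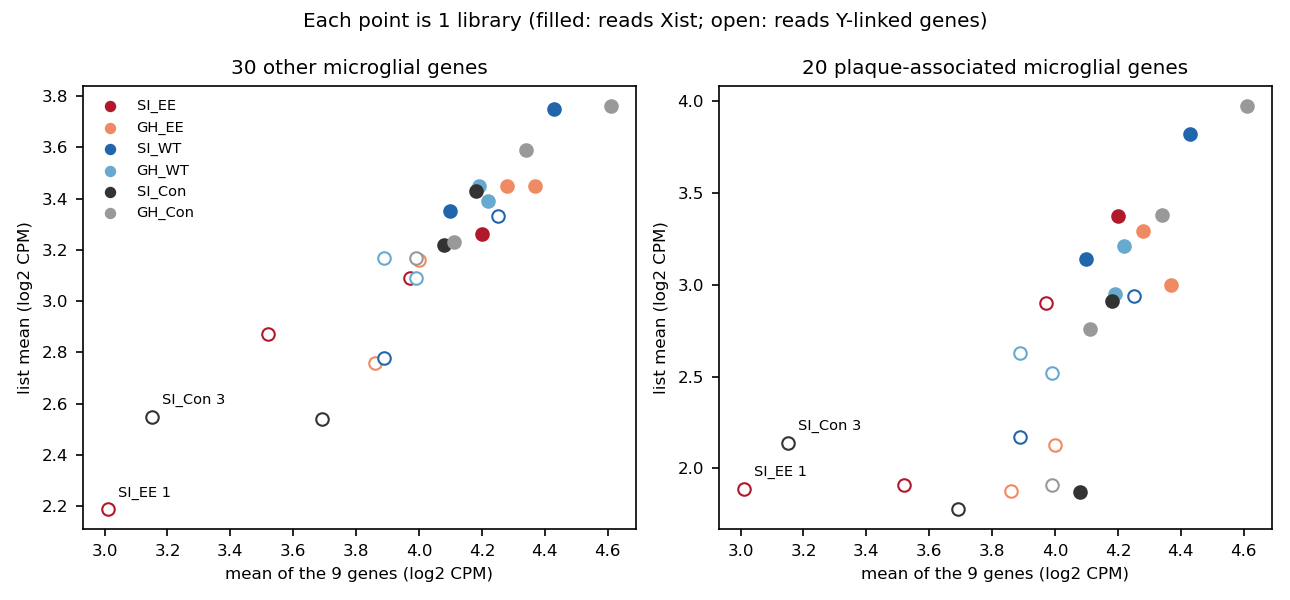
Mean log2 CPM of the 9 genes (x axis) against the mean log2 CPM of 30 other resident microglial genes (left) and 20 plaque-associated genes (right), each point 1 library. Both lists are higher where the 9 genes are higher (r = 0.94 and 0.76), and SI_EE 1 and SI_Con 3 are the 2 libraries at the low end of the x axis. On the plaque-associated axis SI_Con 4 is lowest.

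By the same measure over all genes, using the mean z-score of the 9, the genes most like them included Mpeg1 (r = 0.92), Nckap1l (0.90), Myo1f, Laptm5, Gpr183, Lag3, Lix1, Apbb1ip and Ly86. With group means subtracted, Mpeg1 was at 0.95 and Nckap1l at 0.93. Among the 9 themselves, r ran from 0.35 for Siglech with Sall1 to 0.88 for P2ry13 with Csf1r. Siglech was the least like the rest, with a mean r of 0.49, and Csf1r and Gpr34 the most, at 0.76 each.

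Border macrophages, which sit in the meninges and around vessels and also express Csf1r and Cx3cr1, had a list mean that did not follow the 9 (r = -0.48, and -0.04 without SI_Con 3 and SI_EE 1). Of 12 of their markers, 11 were tested, 9 were higher in SI_Con than in GH_Con, 2 of these at an unadjusted p under 0.05, and the median was 0.44. Their summed level was 15.8 to 30.7 CPM in SI_Con and 14.1 to 19.8 CPM in GH_Con, and Cbr2, Cd209f, Clec10a, Lyve1, Ms4a7, Pf4 and Siglec1 were at 0 in at least 1 library. Of 12 markers of blood leukocytes, 4 were abundant enough to test and Camp was at 0 in every library. Oligodendrocyte markers had lower values in SI_Con for 8 of 8 genes, 5 of them at an unadjusted p under 0.05, with a median of -0.35. Choroid plexus markers, highest at 1660 CPM in SI_Con 4, had a median of 1.72. Astrocyte markers were lower for 7 of 8 genes, 1 of them at an unadjusted p under 0.05, with a median of -0.34, and summed to 3430 to 5080 CPM in SI_Con and 4420 to 5770 CPM in GH_Con. The astrocyte list mean correlated with that of the 9 at r = 0.31, and at 0.71 without SI_EE 1. The part of these cell types in the values of the 9 genes was not tested.

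The signals that act on these receptors were also read. Of 25 ligands, TGF-beta components and partners of the 9 genes, 24 were tested and 0 passed in SI_Con against GH_Con, where the median was -0.17. Il34, the main neuronal ligand of Csf1r in cortex, stood at 41.3 ± 2.70 CPM in SI_Con and 45.9 ± 3.55 CPM in GH_Con, and Csf1 at 18 ± 2.70 CPM in SI_Con and 21 ± 4.12 CPM in GH_Con (SD, n = 4 each). At an unadjusted p under 0.05 were Kcnk13, the potassium channel of microglia (-0.46), Itgb8, the subunit of an integrin that activates TGF-beta (-0.56), and Tgfb3 (0.27), with edgeR adjusted p-values of 0.634, 0.66 and 0.749. They stood beside 3.57% of all genes lower and 2.97% higher at that level. In SI_EE against GH_EE 1 of 24 reached that level, the TGF-beta receptor Tgfbr1 at -0.83 (SE 0.24, edgeR adjusted p = 0.392). In that comparison 2.34% of all genes were lower and 6.36% higher. SI_EE 1 had the lowest mean of this list among all libraries (3.8 on the log2 CPM scale). These 4 genes were named after their values were seen.

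Of 10 transcription factors of myeloid cells, 0 passed in either comparison. Spi1, which encodes PU.1, differed by -0.40 (SE 0.28) and Irf8, its partner, by -0.44 (SE 0.29) in SI_Con against GH_Con. Cx3cl1, the ligand of Cx3cr1, stood at 729 CPM or more in 5 libraries of 4 groups and at 236 CPM or less in the rest, so its group means are not given.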

How the data were processed

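Total RNA from medial prefrontal cortex was extracted with Trizol and treated with DNase before Illumina library construction, per the labels' protocols. The authors deposited whole-number read counts per gene for 24 libraries, not normalised as judged from the values. Build mm10 is named in the submitters' processing notes. How reads were aligned and counted, the annotation included, is not given in the sources used here. Of the 56750 entries, 91.8% could be paired with a symbol, and entries with none held 0.695% of counts and were tested under their ID. No column lacked a sample, and no 2 libraries held identical counts.

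Counts were tested with the edgeR 4.0.16 quasi-likelihood test in R 4.3.3 (TMM factors, filterByExpr on group, robust dispersion, all 24 libraries in 1 fit, no covariate). This left 20354 genes, over which p-values were adjusted by Benjamini-Hochberg, with a threshold of 0.05. The 10 contrasts were isolation against GH in each arm and averaged, EE and the WT arm against Con in each housing, and both treatment-by-housing interactions. Errors are SD over 4 libraries unless SE is written. Log2 CPM used a prior count of 2. Alternatives were DESeq2 1.42.0, limma-voom 3.58.1, other size factors, no filter, only the groups compared, a replicate block, an Xist term (Xist over 100 CPM), and leaving out libraries. Depth limits precision through counts per gene: the 9 genes had 88 to 4253 counts per library. The fit was checked on simulated counts. Their dispersion was the same for all genes and lower than that of the 9, and no library stood apart. The limit on the share called was set after a first run. The check therefore does not give the power of the test for the 9 genes.

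All 9 genes are named throughout. Of each other list, up to 6 members were named in written order, besides Med12l, the genes most like the 9 (from the first 10, mean CPM of at least 1), and genes said to be chosen after their values were seen. Some genes that the rule names are not reported here. The 9 genes and all lists were chosen with earlier results of these data known. The value of the Xist term itself, that term without SI_EE 1, and the count of zeros below were added after seeing the data. Promoter sequences are from RefSeq.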

Additional observations from a re-analysis of the deposited data

How the results depend on the processing

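Under 9 kinds of alternative, 0 of the 9 genes passed in any of the 10 contrasts, and the smallest adjusted p of any of them was 0.204 (Tmem119, SI_EE against GH_EE, over all alternatives). Of 1719 recomputed log2 fold changes of single genes, 1718 moved by less than 1 SD between replicates. Many of these fits left out 1 of 4 libraries of a group, which can hardly move its mean by 1 SD. The count therefore does not measure stability. Gpr34 in SI_Con against GH_Con, for instance, ran from -1.0 (without SI_Con 2) to -0.36 (without SI_Con 3), against -0.66 with all libraries. The value that moved further was Cx3cr1 in the interaction of the WT arm with housing. It was 0.61 without the 4 libraries that read long genes lower, against 1.02 with them. Without those 4 libraries the median was -0.30 for SI_Con against GH_Con, 0.10 for SI_WT against SI_Con and 0.35 for the WT interaction. In each of these 0 of 9 genes then had an unadjusted edgeR p under 0.05. Leaving out each library in turn, the median over the 9 genes ran from -0.51 to -0.25 for SI_Con against GH_Con (highest without SI_Con 3), from -0.59 (without SI_EE 4) to -0.17 (without SI_EE 1) for SI_EE against GH_EE, from 0.11 (without SI_Con 3) to 0.41 (without SI_Con 2) for SI_WT against SI_Con, from -0.28 to 0.15 for SI_EE against SI_Con, from -0.34 to -0.20 averaged over arms, from 0.33 (without SI_Con 3) to 0.73 for the WT interaction and from -0.19 to 0.33 for the EE interaction. The counts at an unadjusted p under 0.05 are small and moved with single libraries, for the averaged contrast between 0 and 5. DESeq2 called 33 genes in SI_Con against GH_Con where edgeR and limma-voom called 0, and 22 in SI_EE against GH_EE where edgeR called 1.

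Replicate numbers showed no visible pairing of the samples. Deviations of libraries with the same number had a mean r of -0.02, with 4 of 60 pairs over 0.1. The labels do not say what the numbers stand for, and these correlations cannot exclude a weak pairing. With the number as a replicate block, the medians were -0.42 for SI_Con against GH_Con and -0.37 for SI_EE against GH_EE, and again 0 of 9 passed. In the averaged contrast 1 of 9 had an unadjusted p under 0.05 with the block, against 2 without it.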

Other observations

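Among 10154 genes with a median of at least 10 CPM, 16 (0.158%) were at 0 counts in at least 1 library. None of the 9 homeostatic genes was at 0 anywhere. Their lowest library stood at 26.2% (Gpr34) to 57.1% (Cx3cr1) of the median over libraries. Mef2c, a transcription factor that neurons also express, ran from 17.7 CPM in SI_WT 4 to 864 CPM in GH_Con 3, with 20 CPM in SI_Con 3 and 26.8 CPM in SI_EE 1. Mef2c was named after its values were seen, and the cause was not tested.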
